A study of Homo sapiens with 6 samples.

Results

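A set of 31 genes of the B lymphocyte lineage was read in 6 RNA libraries of NB4 cells, a permanent cell line from acute promyelocytic leukaemia, in which granulocyte precursors stop maturing at the promyelocyte stage. The set holds immunoglobulin genes, surface receptors, signalling proteins and transcription factors, and makes up 31 of the 61806 genes in the deposited count table. The genes were chosen by name, with their values in these libraries known. Many of them were known to be high in CD69-overexpressing replicates 2 and 3 and low in the other 4 libraries, so that pattern is a description here and was given no test. Genes present in all 6 libraries are kept apart from genes seen mainly in 2 of them.

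The 3 CD69-overexpressing libraries, called CD69-OE 1 to 3, came from NB4 cells transduced with a lentivirus carrying CD69, a C-type lectin of activated leukocytes. The 3 control libraries came from NB4 cells with the matched vector, whose genotype the labels give as wild type. All 6 carry the label batch 1, and no drug was applied to either group. The series' design text calls them biological replicates, but nothing in the labels places them in separate transductions, so each group may be 1 transduced population, and the p-values speak only of the spread among these 6 libraries.

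B lymphocytes join variable and joining gene segments, with a diversity segment between them in the heavy chain, to build the chains of an antibody, and a B cell clone carries 1 productive heavy and 1 productive light chain rearrangement. The chains sit on the cell surface with CD79A and CD79B, which pass the signal through kinases such as BTK and BLK and the adaptor BLNK. Transcription factors such as PAX5 and EBF1 hold the B cell programme. IGLL1 is a surrogate light chain gene of its precursors, and VPREB3 is a relative of the surrogate light chain gene VPREB1. NB4 cells are of the granulocyte line, and B cell genes are not part of the programme for which the line is known.

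Among the immunoglobulin segments, 1 variable and 1 joining gene led each of the heavy and kappa loci. The reference sequences of these 4 segments are shown because the counts of the 2 high libraries concentrate on them. They are from GRCh38, minus strand, through the GENCODE transcripts, 5′ to 3′, with the last 60 bases of each variable gene and the whole of each joining gene. In the variable genes the capitals mark TATTACTGT, which codes for the tyrosine, tyrosine and cysteine that end framework 3, before the antigen-binding loop. In the joining genes they mark TTCGG (kappa) or TGGGG (heavy), any 4 bases, GG and 1 further base, which code for the phenylalanine or tryptophan and the glycines that open framework 4.
IGKV3-20, chr2:89142574-89142633: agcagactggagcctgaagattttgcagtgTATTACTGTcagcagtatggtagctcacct
IGKJ1, chr2:88861886-88861923: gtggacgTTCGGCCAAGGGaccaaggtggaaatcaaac
IGHV4-39, chr14:106421711-106421770: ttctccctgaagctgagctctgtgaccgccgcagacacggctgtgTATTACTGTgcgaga
IGHJ4, chr14:105864215-105864260: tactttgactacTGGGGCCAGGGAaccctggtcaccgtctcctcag

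These letters, searched on the coding strand, are general to the families and do not set the 4 segments apart. TATTACTGT stood in the last 60 bases of 26 of 46 kappa and 58 of 59 heavy variable genes of GENCODE. The letters marked in the joining genes stood in 4 of 5 kappa and 6 of 6 heavy joining genes.

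Total counts lay between 51543550 and 57463020 per library, and 19485 genes passed edgeR's filter on low counts and were tested. Levels are CPM, library-size normalised counts with TMM scaling factors. CD69 itself held 98.2, 99.1 and 95.7 CPM in the CD69-OE libraries, against 80.4, 81.9 and 70.6 CPM in the controls (log2 fold change 0.33, SE 0.07; adjusted p = 0.0153 by edgeR's quasi-likelihood test with Benjamini-Hochberg adjustment). The call was lost without CD69-OE 2 (adjusted p = 0.0618) and with CD69-OE 1 alone against the controls (adjusted p = 0.195). The groups did not overlap, and counts per gene cannot separate the introduced CD69 from the cells' own. Promyelocyte genes were abundant as a list, which holds proteases, receptors and transcription factors. Its 12 genes summed to between 3026 and 3491 CPM in the CD69-OE libraries and between 2124 and 2521 CPM in the controls. MPO, a granule peroxidase of the same list, was nearly absent, at 0.518 to 1.03 CPM in the CD69-OE libraries and 0.928 to 1.45 CPM in the controls. In bulk RNA, a few cells rich in a transcript and many cells with a little of it cannot be told apart, which holds for every level below.

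The 31 genes fell into 4 patterns. A gene was called high in 2 libraries where the lower of its levels in CD69-OE 2 and 3 was at least 4 times the highest of the other 4 libraries, each taken at no less than 3 counts. This held for 19 of the 31, namely IGHM, IGKC, IGKV3-20, IGHA1, IGHG3, MS4A1, CD79B, FCRLA, BLK, TCL1A, RASSF6, IRF4, IKZF3, POU2AF1, SPIB, DTX1, KIAA0040, RUBCNL and ANKRD36BP2. Over all genes tested, 72 (0.37%) met it. Another 5 genes (FCER2, BTK, BLNK, PAX5 and VPREB3) were higher in each CD69-OE library than in each control without meeting it, and IGLL1 was lower in each CD69-OE library than in each control. The remaining 6 (CD79A, CD22, FCRL1, TNFRSF13C, BANK1 and EBF1) did neither.

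**Figure D1:**
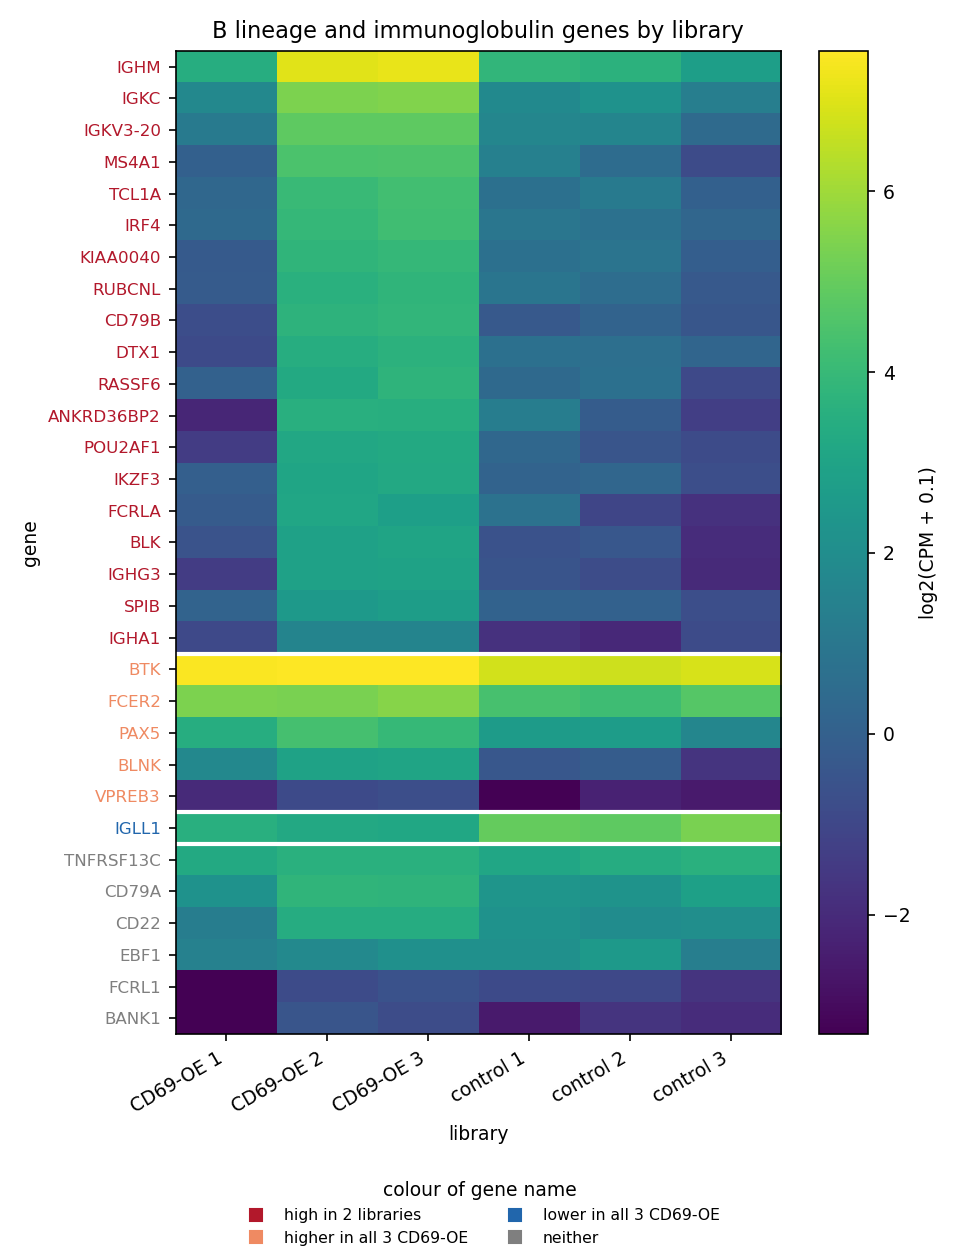
Level of each of the 31 genes (down the page, grouped by pattern) in each of the 6 libraries (across), as log2 of CPM plus 0.1. The 19 genes at the top are brighter in CD69-OE 2 and 3 than in CD69-OE 1 and the 3 controls, and IGLL1 is darker in all 3 CD69-OE libraries.

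The threshold of 4 divided a continuous range. Among the 19 genes the ratio of the lower of CD69-OE 2 and 3 to the highest other library was 4.29 for FCRLA and 4.78 for ANKRD36BP2 at the lower end, 7.86 at the median and 12.8 for CD79B at the top. Just outside stood VPREB3 at 3.11, BLNK at 2.34, CD22 at 2.32, BANK1 at 2.22 and CD79A at 1.86. Asking for at least 2 times gave 23 genes, and asking for at least 8 times gave 9.

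Presence in all libraries, taken as at least 1 CPM in each, held for 12 of the 31 genes, which were IGHM, IGKC, IGKV3-20, IGLL1, CD79A, CD22, TNFRSF13C, FCER2, BTK, PAX5, EBF1 and IRF4. Of these 12, 4 were high in 2 libraries (IGHM, IGKC, IGKV3-20 and IRF4), and IRF4, the lowest of these in counts, still held 62 to 104 counts in the other 4 libraries. The other 15 genes high in 2 libraries fell under 1 CPM in at least 1 library. Counted by library, 15, 28 and 28 of the 31 genes reached 1 CPM in CD69-OE 1, 2 and 3, against 21, 20 and 13 in controls 1, 2 and 3. CD69-OE 1 lay inside the range of the controls in this count, and control 3 had the fewest.

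The immunoglobulin chains showed the pattern at high counts. IGHM, the constant region of the IgM heavy chain (ENSG00000211899; chr14:105851705-105856218, GRCh38, minus strand), held 11.0, 132 and 147 CPM in CD69-OE 1, 2 and 3, against 14.2, 12.4 and 6.76 CPM in the controls. These levels rest on 614, 7454 and 7487 counts in the CD69-OE libraries and on 794, 705 and 379 counts in the controls. CD69-OE 2 and 3 stood together, the lower of them at 9.33 times the highest other library, and CD69-OE 1 lay inside the range of the controls. The log2 fold change between the groups, 3.12 (SE 0.83), therefore averages 1 library at the level of the controls and 2 far above them.

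IGKC, the kappa light chain constant region (chr2:88857161-88857683, minus strand), held 3.28, 41.8 and 44.6 CPM in CD69-OE 1, 2 and 3, against 3.50, 4.62 and 2.39 CPM in the controls. IGKV3-20, the leading kappa variable gene (chr2:89142574-89143160, minus strand), held 2.09, 28.6 and 29.2 CPM, against 3.07, 2.96 and 1.25 CPM in the controls. The pattern by library was the one seen for IGHM, with CD69-OE 1 under controls 1 and 2 and above control 3. Scaled per kilobase of exon, IGHM held 70.7 and 78.4 and IGKC 79.9 and 85.3 CPM per kilobase in CD69-OE 2 and 3. The ratio of IGHM to IGKC per length stayed between 0.884 and 0.933 in the CD69-OE libraries and between 0.752 and 1.13 in the controls, so the CD69-OE libraries lay inside the range of the controls whether their levels were high or low. Likewise, IGKV3-20 to IGKC per length was 0.831 to 0.896 in the CD69-OE libraries and 0.683 to 1.15 in the controls. Ratios to MS4A1, the B cell antigen CD20, were less steady. IGHM to MS4A1 per length was 31.35, 15.39 and 16.82 in CD69-OE 1, 2 and 3, against 14.26, 23.84 and 37.96 in controls 1, 2 and 3.

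The class-switched heavy chains had the same pattern at lower counts. IGHG3, the constant region of IgG3, held 0.286, 7.47 and 7.66 CPM in CD69-OE 1, 2 and 3, against 0.607, 0.476 and 0.143 CPM in the controls. IGHA1, the constant region of IgA1, held 0.428, 2.93 and 2.94 CPM, against 0.196, 0.141 and 0.464 CPM in the controls, where the highest control rested on 26 counts. The IgG and IgA constant genes are close copies of their subclasses, so part of their counts is uncertain.

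The immunoglobulin loci were also read as a whole, with the genes above included. The table held 408 immunoglobulin segments, 78 with a count in any library and 9 at 1 CPM or more in any library (IGHM, IGKC, IGKV3-20, IGHV4-39, IGHG3, IGHA1, IGHG1, IGHG2 and IGKJ1). All segments together summed to 19.1, 232 and 252 CPM in CD69-OE 1, 2 and 3, against 23.1, 22.6 and 11.8 CPM in the controls. The lower of the 2 high libraries was 10.1 times the highest of the other 4.

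**Figure D2:**
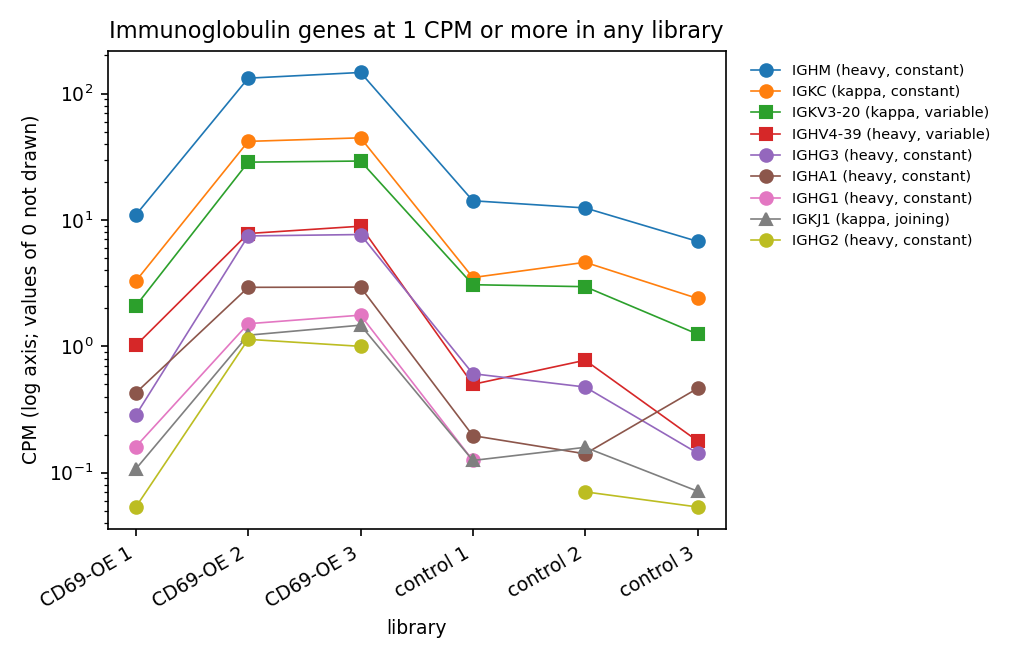
CPM (log axis) of the 9 immunoglobulin genes that reached 1 CPM in any library, with CD69-OE 1 to 3 left of controls 1 to 3, 1 line and colour per gene, and the marker giving constant, variable or joining genes. All lines are highest in CD69-OE 2 and 3, with IGHM at 132 and 147 CPM, and values of 0 are not drawn.

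A narrow set of segments carried these counts. IGKV3-20 took 96.7% of kappa variable counts in CD69-OE 1, 95.5% in CD69-OE 2 (Wilson 95% interval 94.4 to 96.3) and 93.9% in CD69-OE 3 (92.6 to 95.0), against 96.1%, 91.8% and 90.9% in controls 1, 2 and 3. IGHV4-39 took 100% of 57 heavy variable counts in CD69-OE 1, 87.7% of 502 in CD69-OE 2 (84.5 to 90.2) and 90.6% of 502 in CD69-OE 3 (87.8 to 92.9), against 87.5% of 32, 78.6% of 56 and 100% of 10 in the controls. The leading variable gene was the same in all 6 libraries at both loci, although the controls and CD69-OE 1 rest on few heavy chain counts. Intervals and limits here cover counting error only, and they are too narrow if 1 fragment stands for about 4 counts, as an excess of values of 4 and 8 in the table leaves possible.

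The joining genes were more mixed, at lower counts. IGKJ1, whose sequence is given above, led the kappa joining genes with 6, 69 and 75 counts in CD69-OE 1, 2 and 3, against 7, 9 and 4 in the controls, and took 73.4% (Wilson 95% interval 63.7 to 81.3) and 75.8% (66.5 to 83.1) of them in CD69-OE 2 and 3. IGHJ4 led the heavy joining genes with 5, 50 and 39 counts, against 5, 3 and 3 in the controls, and took 56.8% (46.4 to 66.7) and 50.7% (39.7 to 61.5) in CD69-OE 2 and 3. The other 4 libraries held between 5 and 14 joining counts at the heavy or the kappa locus, too few for a share. The short diversity segments held no count in any library. Light chain counts were mostly kappa, with 184, 2357 and 2277 kappa constant counts against 2, 85 and 93 lambda constant counts in CD69-OE 1, 2 and 3. In the controls kappa held 196, 262 and 134 counts and lambda 12, 3 and 1. IGLL5, a gene that shares exons with the lambda genes IGLJ1 and IGLC1, is not in these lambda counts. It held 24, 546 and 465 counts in CD69-OE 1, 2 and 3, against 68, 42 and 8 in the controls. The lambda counts given here may therefore be too low.

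IGLL1, a gene of the surrogate light chain of B cell precursors, stood outside the threshold in the opposite direction. VPREB3, a relative of the surrogate light chain gene VPREB1, stood just under the threshold. IGLL1 (chr22:23573125-23580308, minus strand) held 11.4, 9.22 and 8.83 CPM in CD69-OE 1, 2 and 3, against 31.3, 28.8 and 40.5 CPM in the controls, and the groups did not overlap. Its log2 fold change was -1.77 (SE 0.16), and -1.55 with CD69-OE 1 alone, so it was low in all 3 CD69-OE libraries alike. VPREB3 rested on 8, 25 and 26 counts in the CD69-OE libraries, against 0, 6 and 4 in the controls, and did not pass the filter for testing. Exons of IGLL1 overlap a gene on the other strand, and whether the counting used strand is not given in the sources used here, so part of its counts is uncertain, as for each gene named below with such an overlap.

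Among the surface receptors, MS4A1, the B cell antigen CD20, and CD79B, a signalling chain of the antigen receptor, were high in 2 libraries. MS4A1 held 0.910, 22.4 and 22.7 CPM in CD69-OE 1, 2 and 3, against 2.59, 1.36 and 0.464 CPM in the controls. CD79B held 0.4997, 12.9 and 14.4 CPM, against 0.714, 1.005 and 0.642 CPM in the controls, and gave the widest gap of the 31 genes between the high libraries and the rest. For both, CD69-OE 1 was among the low libraries, and for CD79B it was under every control. CD79B shares exons with another annotated gene on its strand. FCRLA, an intracellular relative of the Fc receptors, held 0.768, 8.55 and 6.90 CPM, against 1.61, 0.388 and 0.196 CPM in the controls, with control 1 well above the other controls.

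CD79A, the partner of CD79B, was present in all libraries at 4.57, 13.6 and 13.3 CPM in CD69-OE 1, 2 and 3, against 4.96, 4.64 and 7.16 CPM in the controls. CD22, an inhibitory receptor of B cells, held 2.36, 10.7 and 10.6 CPM, against 4.55, 3.84 and 4.07 CPM in the controls. Both were again highest in CD69-OE 2 and 3, by 1.86 and 2.32 times over the highest other library. For CD22, CD69-OE 1 lay under every control. CD22 shares exons with other annotated genes. TNFRSF13C, the receptor for the survival factor BAFF (log2 fold change 0.10, SE 0.16), held 9.62, 11.7 and 11.9 CPM, against 8.51, 10.7 and 11.9 CPM in the controls, and the groups overlapped. It shares exons with a microRNA gene.

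FCER2, the low-affinity IgE receptor CD23, was higher in every CD69-OE library than in every control. It held 41.8, 41.4 and 47.3 CPM in CD69-OE 1, 2 and 3, against 21.0, 18.1 and 25.6 CPM in the controls (43.5 ± 3.33 and 21.6 ± 3.80 CPM, SD, n = 3 each; log2 fold change 1.01, SE 0.13). CD69-OE 1 was as high as CD69-OE 2, unlike in the 19 genes high in 2 libraries. FCRL1, an Fc receptor-like protein of B cells, rested on 0, 26 and 29 counts in the CD69-OE libraries, against 25, 23 and 12 in the controls, so its level in CD69-OE 1 was under the limit of 3 counts that a count of 0 allows.

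The signalling genes divided in the same way. BTK, the kinase downstream of the B cell receptor that myeloid cells also express (chrX:101349447-101390796, minus strand), was abundant everywhere and held 180.9, 187.0 and 187.7 CPM in CD69-OE 1, 2 and 3, against 111, 105 and 119 CPM in the controls (185 ± 3.75 and 112 ± 7.33 CPM, SD, n = 3 each; log2 fold change 0.73, SE 0.07). The 3 CD69-OE libraries were close to each other and far from the controls. BLNK, the adaptor that BTK and SYK act through, held 3.25, 7.61 and 8.13 CPM, against 0.678, 0.793 and 0.214 CPM in the controls. Every CD69-OE library stood above every control, and CD69-OE 1 was below the other 2. Exons of BLNK overlap ZNF518A on the other strand.

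BLK, a Src family kinase of B cells, was high in 2 libraries, with 0.589, 7.45 and 8.17 CPM in CD69-OE 1, 2 and 3, against 0.571, 0.670 and 0.161 CPM in the controls. TCL1A, a coactivator of the kinase AKT, held 1.14, 16.7 and 19.3 CPM, against 1.53, 2.13 and 0.910 CPM in the controls. RASSF6, a Ras association domain protein, held 0.946, 9.76 and 13.4 CPM, against 1.20, 1.52 and 0.428 CPM in the controls. In all 3 genes CD69-OE 1 lay inside the range of the controls. BANK1, a scaffold protein of B cell signalling, rested on 0, 35 and 24 counts in the CD69-OE libraries, against 4, 12 and 9 in the controls. BLK and TCL1A overlap genes on the other strand.

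Of the transcription factors, PAX5, which commits cells to the B lineage (chr9:36833275-37034185, minus strand), was present throughout and held 10.7, 19.9 and 15.6 CPM in CD69-OE 1, 2 and 3, against 6.14, 6.29 and 3.07 CPM in the controls (log2 fold change 1.58, SE 0.32). All 3 CD69-OE libraries lay above all controls, and CD69-OE 2 was the highest. EBF1, which acts with PAX5 early in the lineage, held 2.66, 3.33 and 4.27 CPM, against 4.27, 5.73 and 2.41 CPM in the controls, and the groups overlapped. PAX5 overlaps a gene on the other strand.

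The later factors were high in 2 libraries. IRF4, which acts in activated B cells and plasma cells, held 1.21, 15.0 and 18.4 CPM in CD69-OE 1, 2 and 3, against 1.86, 1.55 and 1.11 CPM in the controls. POU2AF1, the coactivator of the octamer-binding factors, which overlaps a gene on the other strand, held 0.286, 9.17 and 9.54 CPM, against 1.12, 0.635 and 0.464 CPM in the controls. The zinc finger factor IKZF3 held 0.875, 8.27 and 9.30 CPM, against 1.00, 1.09 and 0.517 CPM in the controls. In these 3 genes CD69-OE 1 was under the highest control. SPIB, an ETS family factor, held 1.02, 5.76 and 6.54 CPM, against 0.964, 0.952 and 0.517 CPM in the controls. SPIB was the 1 gene of the 19 in which CD69-OE 1 was above every control, with 57 counts against at most 54, and it shares exons with another gene. DTX1, a ubiquitin ligase of the Notch pathway, held 0.446, 10.7 and 12.8 CPM, against 1.53, 1.46 and 1.05 CPM in the controls.

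The last 3 genes have no settled role in antigen receptor signalling. RUBCNL, an autophagy regulator that shares exons with a pseudogene, held 0.768, 11.8 and 13.7 CPM in CD69-OE 1, 2 and 3, against 1.79, 1.39 and 0.732 CPM in the controls. KIAA0040 held 0.750, 13.6 and 15.2 CPM, against 1.52, 1.73 and 0.857 CPM in the controls. ANKRD36BP2 is a transcribed pseudogene that ends 50.5 kilobases from IGKC on chromosome 2 (chr2:88765807-88806612, plus strand). It held 0.125, 11.6 and 11.1 CPM, against 2.32, 0.793 and 0.303 CPM in the controls, the lowest value in CD69-OE 1 relative to the high libraries of any of the 19.

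The 4 libraries in which the 19 genes were low still held a small share of them. Set against the mean of CD69-OE 2 and 3, the level in CD69-OE 1 was 7.22% at the median over the 19 genes, with a range of 1.10% (ANKRD36BP2) to 16.5% (SPIB). In control 1 the median was 10.6% (5.24% to 20.8%), in control 2 it was 9.28% (4.81% to 15.5%) and in control 3 it was 4.96% (1.89% to 15.8%). Control 3 was the lowest of the 4 libraries for 13 of the 19 genes, and control 1 or 2 was the highest for 17. CD69-OE 1 lay inside the range of the controls for 13, under it for 5 (CD79B, POU2AF1, DTX1, KIAA0040 and ANKRD36BP2) and above it for SPIB.

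**Figure D3:**
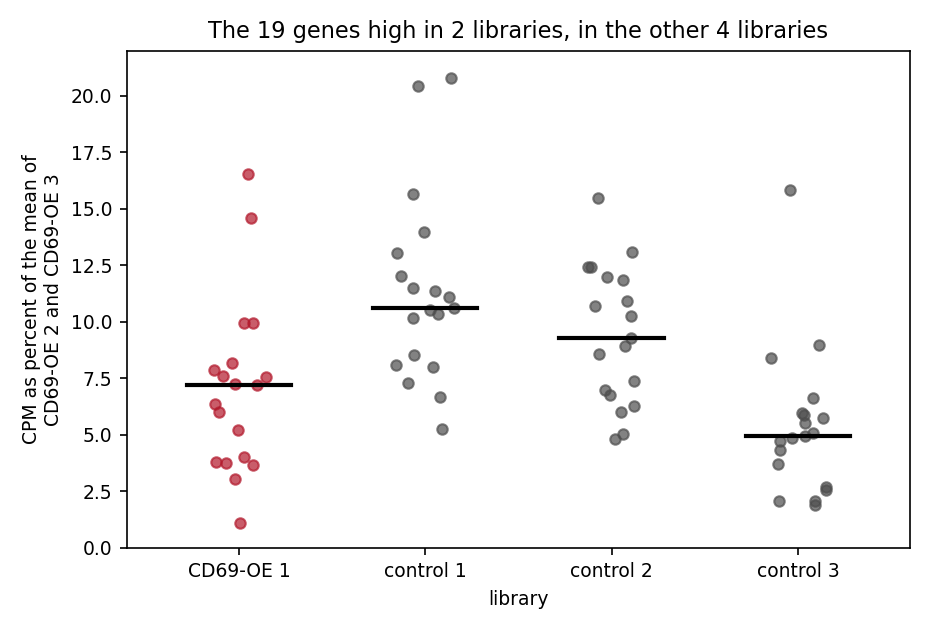
Level of each of the 19 genes in the other 4 libraries, as percent of its mean in CD69-OE 2 and 3, 1 point per gene, with the median as a bar. CD69-OE 1 has a median of 7.22%, inside the range of the medians of the 3 controls (4.96% to 10.6%).

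The 2 high libraries were close to each other. The ratio of CD69-OE 3 to CD69-OE 2 ran from 0.807 (FCRLA) to 1.37 (RASSF6) over the 19 genes, with a median of 1.11. Summed over the 19, the level was 27.4, 377 and 412 CPM in CD69-OE 1, 2 and 3, against 41.9, 37.3 and 19.4 CPM in the controls. The summed level was thus lower in CD69-OE 1 than in controls 1 and 2.

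Between the groups, 16 of the 30 genes tested were called higher and IGLL1 lower in CD69-OE libraries (edgeR quasi-likelihood test, adjusted p under 0.05), where 14.2% of all genes tested were called higher and 9.94% lower. VPREB3 was not tested. Of the 19 genes high in 2 libraries, 12 were among those called and 7 were not (MS4A1, FCRLA, POU2AF1, DTX1, KIAA0040, RUBCNL and ANKRD36BP2). Since these values chose the genes, the count is given as a description. The median log2 fold change was 2.83 over the 30 genes and 0.0059 over all genes tested. Among the 30 genes tested, the groups did not overlap for 5 that were higher (FCER2, BTK, BLNK, PAX5 and SPIB) and for IGLL1, where 23.0% of all genes tested were higher and 19.3% lower without overlap. VPREB3 was also higher without overlap.

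The count rested on which libraries entered. With CD69-OE 1 alone against the controls, 2 genes (FCER2 and BTK) were called higher, where 4.49% of all genes were, and IGLL1 was called lower, where 2.17% were. The lone library is there assumed to vary like the controls. The median log2 fold change of the 30 genes was then -0.30. Without CD69-OE 1, 25 genes were called higher, where 11.7% of all genes were, and IGLL1 lower, where 9.15% were. Without CD69-OE 2 or CD69-OE 3, 4 genes were called higher in each case (8.81% and 10.7% of all genes), and without control 1, 2 or 3 the counts were 5, 4 and 5 (9.47%, 9.34% and 14.3% of all genes). FCER2, BTK, BLNK and PAX5 were among those called higher in each fit that left out 1 library, and IGLL1 was called lower in each, where 5.62% (without CD69-OE 2), 7.47% (without CD69-OE 3), 6.02%, 6.34% and 10.9% (without control 1, 2 and 3) of all genes were. Other methods gave 4 genes higher without a filter (6.38% of all genes), 4 by limma-voom (14.4%), 21 by DESeq2 (16.3%), 18 with counts divided by 4 (18.5%) and 5 with the replicate number as a block (16.4%).

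**Figure D4:**
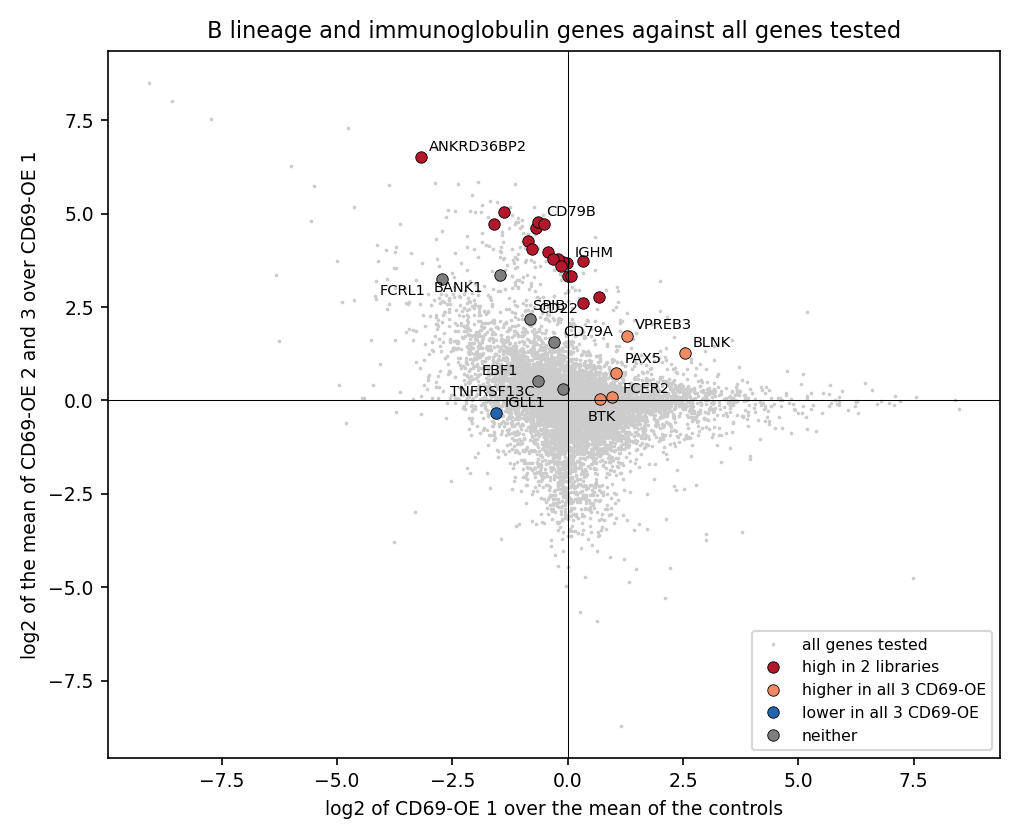
Each tested gene (grey) and each of the 31 genes (coloured by pattern) by the log2 ratio of CD69-OE 1 to the control mean (across) and of the mean of CD69-OE 2 and 3 to CD69-OE 1 (up), with levels taken at no less than 3 counts. CD69-OE 1 enters both axes, so errors in it move points along the falling diagonal. The 19 genes high in 2 libraries lie high, with ANKRD36BP2 farthest to the left, BTK and FCER2 lie to the right at a height near 0, and IGLL1 lies to the left.

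Genes outside the 31 that shared the pattern were ranked by mean CPM in CD69-OE 2 and 3. Over all 61806 genes, 142 met the rule of at least 4 times, including the 19. Of the 72 that were tested 31 were called higher, where 14.2% of all genes tested were. The values that met the rule also enter the test, so this count is a description. The first among the others were PELI1, a ubiquitin ligase of innate immune signalling, JCHAIN, which joins IgM and IgA into polymers, IGLL5, which shares exons with the lambda joining and constant genes IGLJ1 and IGLC1, the cannabinoid receptor CNR1 and IGHV4-39. JCHAIN held 0.732, 9.13 and 10.3 CPM in CD69-OE 1, 2 and 3, against 1.37, 0.652 and 1.02 CPM in the controls. IGLL5 held 0.428, 9.68 and 9.11 CPM, against 1.21, 0.740 and 0.143 CPM in the controls. Others were the extracellular protein gene COCH, the pseudogene TBC1D27P, which shares exons with TNFRSF13B, the germinal centre regulator RGS13, the repressor BACH2, NLRP11, BEND4, the chemokine receptor CCR7, LEF1, PCDH9, NIBAN3, PPP1R16B and 2 genes without a symbol. PELI1, JCHAIN, CXCR5, COCH, BACH2, NLRP11, LEF1 and PCDH9 overlap genes on the other strand. CXCR5, the chemokine receptor that guides B cells into follicles, was uneven between the 2 high libraries at 2.77 and 13.0 CPM, with 0.143 CPM in CD69-OE 1 and 0.159 to 0.428 CPM in the controls.

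Lists of related genes were read the same way, written from textbook markers and with earlier results of these data known. Their counts of calls stand beside 14.2% higher and 9.94% lower over all genes tested with all 6 libraries. Of 30 further B lineage genes, 25 were tested, of which 6 were higher and 6 lower in the CD69-OE cells (median log2 fold change 0.62). With CD69-OE 1 alone 1 was higher and 3 were lower, and without CD69-OE 1 the counts were 13 and 5. Without CD69-OE 2 or CD69-OE 3, 4 were higher in each case and 4 and 5 lower. POU2F2, an octamer-binding factor that works with POU2AF1, was high in all 3 CD69-OE libraries at 69.1, 82.4 and 69.0 CPM, against 1.68, 2.36 and 1.68 CPM in the controls (log2 fold change 5.27, SE 0.16; adjusted p = 2.42e-06). The POU2F2 call held in every fit run. BACH2 (log2 fold change 2.93, SE 0.60) and the nuclear protein AFF3 (2.09, SE 0.56) were also called, but BACH2 not without control 1 or 2 and AFF3 not without CD69-OE 2, CD69-OE 3 or control 2 (adjusted p of up to 0.266 and 0.449 over all fits). Of the 6 lower genes TLR9, a receptor for DNA, held 3.20, 3.80 and 4.66 CPM in CD69-OE 1, 2 and 3, against 10.3, 8.85 and 12.2 CPM in the controls (log2 fold change -1.43, SE 0.20), and shares exons with another annotated gene. The adaptor STAP1 held 0.910, 1.69 and 1.51 CPM, against 2.84, 3.77 and 3.91 CPM in the controls (log2 fold change -1.36, SE 0.28). Both were low in all 3 CD69-OE libraries, and both calls held in every fit run. CD180, FCMR and LY86 were also lower. FCRL3, FCRL5, TNFRSF13B, BACH2, CXCR5 and TLR10 were high in 2 libraries, and CCR6 held no count in any library.

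Genes of B cell receptor signalling that myeloid cells also use were called at shares near those of all genes. Of 24 tested, 4 were higher and 2 lower (4 without control 3), where 14.2% of all genes tested were higher and 9.94% lower. None was high in 2 libraries, and their median log2 fold change was -0.06. The adaptors LAT2 and LCP2 and the membrane protein BCAP31 were higher, by 0.84 (SE 0.07), 0.97 (SE 0.09) and 0.71 (SE 0.13) on the log2 scale. The adaptor DAPP1 fell by 1.40 (SE 0.12). SYK, the first kinase of the pathway, held 267, 277 and 248 CPM in CD69-OE 1, 2 and 3, against 282, 283 and 279 CPM in the controls (adjusted p = 0.332). With CD69-OE 1 alone 2 of the 24 were higher and 1 was lower, and BCAP31 was then not called (adjusted p = 0.119).

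Stage markers of the B lineage varied. Of 6 tested precursor genes SOCS2, a feedback inhibitor of cytokine signalling, fell by 0.82 (SE 0.12), LEF1 was high in 2 libraries and VPREB1 held no count. By edgeR 0 precursor genes were called higher, with 2 at an unadjusted p under 0.05, 2 by DESeq2, 1 by limma-voom and 1 without CD69-OE 1. Of 11 tested germinal centre genes 0 were called higher by edgeR, with 3 at an unadjusted p under 0.05, 1 by DESeq2, 0 by limma-voom and 3 without CD69-OE 1. LMO2, a transcriptional adaptor, was lower (log2 fold change -0.36, SE 0.08; adjusted p = 0.0128), a call lost without CD69-OE 1 or CD69-OE 2. Germinal centre genes high in 2 libraries included RGS13 and GCSAM. Of 13 plasma cell genes 5 were higher and 1 lower. CD38, a surface enzyme that NB4 cells also make in response to retinoic acid, was higher by 1.52 (SE 0.16) and DERL3, a protein of the endoplasmic reticulum, by 0.99 (SE 0.19) on the log2 scale, and ELL2 fell by 0.80 (SE 0.13). JCHAIN was at the threshold (log2 fold change 2.72, SE 0.83; adjusted p = 0.0496) and was not called without CD69-OE 2, CD69-OE 3 or any 1 control (range over all fits 0.000672 to 0.676). MZB1 and JCHAIN were high in 2 libraries. With CD69-OE 1 alone 1 plasma cell gene was called higher, and 3 were without CD69-OE 2, CD69-OE 3, control 1 or control 2.

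MHC class II genes, which B cells share with other antigen-presenting cells, were higher for 9 of 13 (median log2 fold change 2.12), and 0 were lower by edgeR, by DESeq2, by limma-voom and at an unadjusted p under 0.05, with 1 lower under the replicate block. HLA-DRB1 was high in all 3 CD69-OE libraries, at 12.5, 15.1 and 16.4 CPM, against 2.12, 2.29 and 2.37 CPM in the controls. HLA-DRA held 7.05, 22.9 and 21.5 CPM, against 2.84, 3.37 and 1.70 CPM in the controls, and HLA-DOA held 0, 2.36 and 2.47 CPM, against 0.321, 0.0705 and 0.286 CPM. The list so held genes of both patterns. With CD69-OE 1 alone 3 were called higher, without it 10, without control 1 it was 5, and without any 1 of the other 4 libraries it was 6. HLA genes are similar to each other, so part of their counts is uncertain.

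Markers of other cell types were set beside these levels. Of 16 T cell genes, those with no count in any library included CD3E, CD3G, CD28 and CD8B, and the list summed to 1.39, 4.88 and 5.17 CPM in CD69-OE 1, 2 and 3, against 2.41, 2.75 and 2.84 CPM in the controls. Of its 5 tested genes LCK and ZAP70 were called higher and CD2 lower, though LCK was not called without CD69-OE 2, CD69-OE 3 or any 1 control, and CD2 not without control 1 or 2. LCK, a kinase that some B cells also express, held 0.196, 1.15 and 1.08 CPM, against 0.0892, 0.123 and 0.0714 CPM in the controls. The 8 NK cell genes summed to between 116 and 134 CPM in the CD69-OE libraries and between 108 and 124 CPM in the controls, with NCR1 and PRF1 at 0 in all. Of the 3 tested, NKG7 was higher and NCAM1 and KLRF1 lower, where the call of KLRF1 was lost without CD69-OE 1, CD69-OE 2 or any 1 control.

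The plasmacytoid dendritic cell list was high in all 3 CD69-OE libraries, summing to 347, 367 and 376 CPM against 16.9, 15.4 and 13.2 CPM in the controls, almost wholly through LAMP5 at 333, 324 and 334 CPM. TCF4, a factor that B cells and plasmacytoid dendritic cells share, held 12.2, 41.1 and 40.2 CPM, against 11.7, 10.2 and 6.67 CPM in the controls. Of the 3 genes tested these 2 were called higher, TCF4 not without CD69-OE 2, CD69-OE 3 or any 1 control. Both overlap genes on the other strand. Of 12 promyelocyte genes 3 were higher and 2 lower, and of 8 monocyte genes 2 and 1. Without control 3 the promyelocyte counts were 5 and 1, and without CD69-OE 1, CD69-OE 2, control 1 or control 2 they were 3 and 1. Without CD69-OE 1 the monocyte counts were 1 and 3. The monocyte counts were 1 and 2 without CD69-OE 2 and 1 and 1 without any 1 control. The monocyte list summed to 89.8, 73.1 and 68.2 CPM in CD69-OE 1, 2 and 3, against 76.2, 74.0 and 83.2 CPM in the controls. The erythroid and megakaryocyte list summed to under 2 CPM in every library, with 2 genes tested and 0 called by edgeR, DESeq2 or limma-voom, and 1 lower at an unadjusted p under 0.05.

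The epithelial and fibroblast list had a lower sum in the 2 libraries high in B lineage genes. Its 8 genes summed to 131, 45.9 and 45.0 CPM in CD69-OE 1, 2 and 3, against 127, 141 and 132 CPM in the controls. KRT8, a keratin of simple epithelia, held 56.9, 14.3 and 11.3 CPM, against 55.7, 58.5 and 57.4 CPM in the controls, and KRT18, its partner, held 25.6, 4.70 and 5.33 CPM, against 28.3, 23.8 and 26.2 CPM in the controls. CD69-OE 1 and the controls were alike, and the 2 libraries high in B lineage genes were low in these keratins. KRT8 and KRT18 overlap each other on opposite strands. Of the 8 genes EPCAM alone was called by edgeR, and fell by 1.04 (SE 0.28; adjusted p = 0.0315). That call was lost without any 1 of the CD69-OE libraries or without control 1 or 2. Without CD69-OE 1, 3 of the 8 were called lower. By DESeq2 with all 6 libraries, 1 of the 8 was called lower and 1 higher. The part of these markers in the levels of the 31 genes was not tested, nor was whether the libraries hold RNA of other cells.

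**Figure D5:**
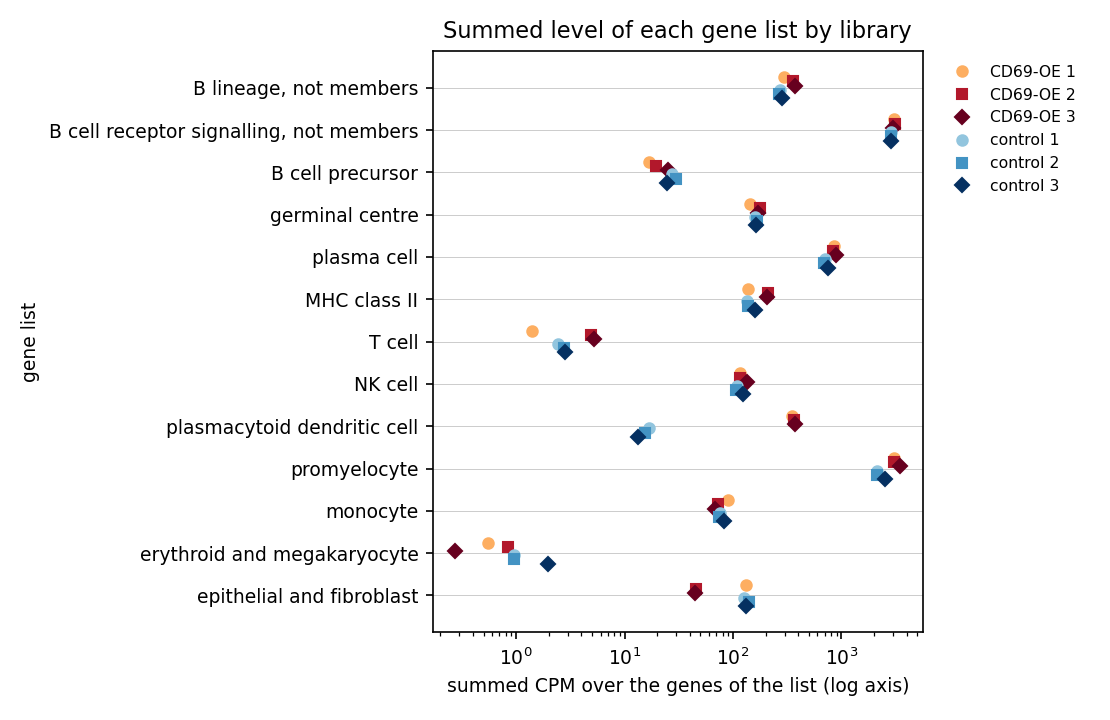
Summed CPM (log axis) of 13 gene lists (down the page) in each library, with CD69-OE 1 to 3 in warm and controls 1 to 3 in blue colours. The epithelial and fibroblast list is at 45.9 and 45.0 CPM in CD69-OE 2 and 3 and at 127 CPM or more in the other 4 libraries, and the plasmacytoid dendritic cell list is high in all 3 CD69-OE libraries.

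Promoters were searched for 3 motifs in the RefSeq windows of 250 bases before to 50 after each start (GRCh38.p14, 35116 windows, both strands). Of the 31 genes 18 had a window, 7 of them high in 2 libraries. The octamer ATTTGCAT, the site of POU2F2 and its relatives in immunoglobulin promoters, stood in 1.77% of all windows and in that of 1 of the 18 genes, VPREB3. Genes without a window were not searched, so this count does not speak for their promoters. No promoter of an immunoglobulin variable gene is shown here. The E-box CAGGTG stood in 20.6% of all windows and in those of 5 of the 18 genes (BLNK, CD79A, IGLL1, RASSF6 and VPREB3). The purine box GAGGAAGT stood in 2.59% and in those of 4 genes (BANK1, BTK, FCRL1 and FCRLA). The 18 genes had 23 windows, of which 1 held the octamer, 5 the E-box and 4 the purine box. The percentages are shares of windows and not of genes. These matches describe letters in a window and no more.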

How the data were processed

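Poly(A) RNA of NB4 cells was made into dUTP strand-specific libraries and sequenced as 150-base pairs, per the labels' protocols. The authors deposited 1 table of estimated counts per gene and library, and the submitters' processing notes list, in no order, FastQC, fastp, STAR, featureCounts, Subread and the build GRCh38 (hg38). The values are called estimated because the counting unit is not given in the sources used here, nor are versions, annotation or strand setting. All were whole, so rounding changed nothing. Without the strand setting, reads of overlapping genes on opposite strands cannot be told apart.

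Names came from a gene name table for 61757 of 61806 identifiers, and positions and exon overlaps from GENCODE. All genes were fitted together with edgeR 4.0.16 (filterByExpr, TMM, glmQLFit and glmQLFTest, two-sided, Benjamini-Hochberg adjustment over 19485 genes, threshold 0.05; R 4.3.3), tested first on simulated data. Alternatives were RLE or no scaling factors, no filter, 50 counts in 3 libraries, DESeq2 1.42.0, limma-voom (limma 3.58.1), the replicate number as a block, each library left out in turn, and other thresholds. Counts divided by 4 and CD69-OE 1 alone against the controls were chosen after seeing these data.

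The 31 genes and all lists were chosen with earlier results of these data known. Named besides were CD69, the 20 further genes highest in the pattern, up to 4 called genes per list by fold change, and immunoglobulin genes at 1 CPM or more. Some genes that met this rule are not reported here, and other genes were named after their values were seen. Libraries of a group differed beyond sampling noise in every pair, with a chi-square of 2.29 to 14.1 per degree of freedom on counts divided by 4. Figures used matplotlib 3.10.9.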

Additional observations from a re-analysis of the deposited data

How the results depend on the processing

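The patterns by library needed no test and held at 19 genes under RLE factors, without scaling factors, and judged on CD69-OE 2 or CD69-OE 3 alone. A threshold of 8 times left 9 genes. Genes present in all libraries numbered 17 at 0.5 CPM and 10 at 2 CPM. The immunoglobulin sum was 10.1 times the highest other library, 9.16 times for variable genes only, and 10.1 to 10.9 times without CD69-OE 3 or 2, which was added after seeing the data. The calls were less stable. Of the 31 genes, 16 were called higher, but 4 without a filter (6.38% of all genes), 4 by limma-voom (14.4%) and 2 with CD69-OE 1 alone (4.49%), while DESeq2 gave 21 (16.3%) and counts divided by 4 gave 18 (18.5%). Counts divided by 4, CD69-OE 1 alone and the lists without a CD69-OE library were added after seeing the data. Leaving out 1 library gave 4 (CD69-OE 2, CD69-OE 3 or control 2) to 25 (CD69-OE 1), and 5 without control 1 or 3. The genes lost without a filter or by limma-voom were all among those high in 2 libraries, and the cause was not tested. IGLL1 was called lower in all of these fits. Over the whole table, CD69-OE 1 alone gave 875 higher and 423 lower genes, and leaving out 1 library gave 1783 to 2917 higher and 1137 to 2226 lower. Over the 13 lists 34 genes were higher and 18 lower, where 14.2% of all genes tested were higher and 9.94% lower. With CD69-OE 1 alone the counts were 11 and 11, and leaving out 1 CD69-OE library gave 24 to 47 higher and 13 to 20 lower. Over all genes tested, the shares called were 4.49% higher and 2.17% lower with CD69-OE 1 alone. Leaving out 1 CD69-OE library, these shares were 8.81% to 11.7% higher and 5.62% to 9.15% lower. The number of genes tested in each list is given above with that list. With the replicate number as a block, 5 of the 31 genes were called higher, and 3194 genes higher and 2669 lower over the table. Deviations of libraries with the same number correlated at -0.03, 0.05 and 0.07. The labels give only a number, so pairing was not assumed, though such correlations cannot exclude that same-numbered libraries were handled together. Many of the 31 genes rest on under 100 counts in the low libraries, which limits how well their low levels can be ranked.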

Other observations

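A converse set of genes was low in CD69-OE 2 and 3 and was picked after its values were seen. Of the 19485 genes tested, 108 were at most 0.25 times the lowest other library in both, against 72 that were high in 2 libraries. C3, a complement protein, held 147, 20.5 and 34.9 CPM in CD69-OE 1, 2 and 3, against 154, 156 and 157 CPM in the controls. FN1, the matrix protein fibronectin, held 119, 12.7 and 26.7 CPM, against 122, 122 and 120 CPM in the controls. TNC, the matrix protein tenascin C, held 35.5, 3.49 and 4.43 CPM, against 30.9, 38.6 and 36.8 CPM in the controls. In these 3 genes CD69-OE 1 was near the controls and far from CD69-OE 2 and 3. Of the 19 B lineage genes high in CD69-OE 2 and 3, CD69-OE 1 lay inside the range of the controls for 13. It lay under every control for 5 and above every control for SPIB.

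At few counts, lambda variable genes differed from the other immunoglobulin segments. They held 26, 28 and 22 counts in CD69-OE 1, 2 and 3, against 3, 5 and 4 counts in the controls, so that CD69-OE 1 was as high as the other 2 there. In CD69-OE 1 the counts were 11 of IGLV3-9, 9 of IGLVIVOR22-2, 4 of IGLV5-52 and 2 of IGLVIVOR22-1. IGLV3-9 held 7 and 4 in CD69-OE 2 and 3, where other genes held the rest. Such counts are too few to rank the libraries, the more so if 1 fragment stands for about 4 counts.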
